A study of Rattus norvegicus with 12 samples.

Results

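The genes described here are 10 transcripts of the hypoxia-inducible factor (HIF) pathway in rat kidney: Hif1a, Epas1, Egln1, Egln3, Adm, Epo, Bnip3, Ndrg1, Ankrd37 and P4ha1. They were found by gene symbol, from a list drawn up with earlier results of these data known, and each symbol stood on 1 row of the annotated table of 30208 genes. All 10 had reads, and 9 were among the 14664 genes tested, since Epo had too few reads to pass the filter on low counts. RNA sequencing of kidney tissue gave 12 libraries in 3 groups of 4. The CPB+Nitrite group is labelled as cardiopulmonary bypass, circulation by a heart-lung machine, together with nitrite, a salt from which tissues can form nitric oxide. The CPB group had bypass without nitrite, and the sham group is the surgical control. The series title presents nitrite as protection against kidney injury after heart surgery. The labels used here give no strain, sex, age, dose, bypass duration or time of sampling, and they do not say whether the libraries of a group came from separate animals. The p-values below therefore measure the spread between these samples, which may be technical.

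HIF is a transcription factor made of an oxygen-regulated alpha subunit, encoded by Hif1a or Epas1, and a stable partner encoded by Arnt. In oxygen, prolyl hydroxylases such as those encoded by Egln1 and Egln3 modify the alpha subunit, which the von Hippel-Lindau protein (Vhl) then marks for degradation. When oxygen is scarce the alpha subunit accumulates and the dimer binds hypoxia-response elements of target genes. In kidney the Hif1a product is best known from tubule cells and the Epas1 product from endothelial and interstitial cells, the interstitial ones being the source of erythropoietin. Control of the alpha subunits acts mainly on the protein, which was not measured here.

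Promoter windows from RefSeq (assembly GRCr8), reaching from 250 bases before to 50 bases after the annotated start, were found for 9 of the 10 genes; Ndrg1 was not matched. They were searched on both strands for the core letters of a hypoxia-response element, ACGTG or GCGTG. The palindrome CACGTG holds the first core on both strands and so counts as 2 overlapping matches. At least 1 match lay in 6 of the 9 windows, beside 13937 of all 33469 windows of 300 bases (41.6%). The windows also differed in the CG dinucleotide, which both cores contain: the median was 27 per window in the 9 genes and 7 in all windows. ACGTG lay in 5 of the 9 windows, against 19.3% of all, and GCGTG in 5 of the 9, against 29.7% of all. A match is a run of letters and says nothing of whether HIF binds there.

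The 5 stretches below are the 250 bases before the start. They are the 4 genes with the most matches, Ankrd37, Bnip3, P4ha1 and Hif1a, and Egln3, which is shown because its level followed that of Ankrd37 across libraries while its window held no match. All are written 5′ to 3′ on the gene's strand, with capitals marking the matched letters, on either strand, of matches that lie wholly before the start. Ankrd37 lies at chr16:53001257-53001506 on the plus strand, Bnip3 at chr1:203154963-203155212 on the minus strand, P4ha1 at chr20:27844796-27845045 on the plus strand, Hif1a at chr6:98359648-98359897 on the plus strand and Egln3 at chr6:77411016-77411265 on the minus strand.
Ankrd37: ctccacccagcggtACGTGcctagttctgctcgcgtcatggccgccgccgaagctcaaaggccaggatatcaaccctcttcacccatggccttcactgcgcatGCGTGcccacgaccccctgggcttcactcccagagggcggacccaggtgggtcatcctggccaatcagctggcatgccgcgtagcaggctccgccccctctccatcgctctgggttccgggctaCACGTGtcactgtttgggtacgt
Bnip3: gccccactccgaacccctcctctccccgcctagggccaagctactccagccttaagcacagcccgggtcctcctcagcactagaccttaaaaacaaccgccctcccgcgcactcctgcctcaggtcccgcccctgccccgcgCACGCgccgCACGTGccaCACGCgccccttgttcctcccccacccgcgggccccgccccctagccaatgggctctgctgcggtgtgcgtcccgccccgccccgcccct
P4ha1: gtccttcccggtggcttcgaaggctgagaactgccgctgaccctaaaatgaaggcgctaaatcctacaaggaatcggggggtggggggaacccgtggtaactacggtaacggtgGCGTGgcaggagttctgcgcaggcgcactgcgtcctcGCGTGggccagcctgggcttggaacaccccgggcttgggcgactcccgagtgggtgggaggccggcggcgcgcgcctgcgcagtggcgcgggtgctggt
Hif1a: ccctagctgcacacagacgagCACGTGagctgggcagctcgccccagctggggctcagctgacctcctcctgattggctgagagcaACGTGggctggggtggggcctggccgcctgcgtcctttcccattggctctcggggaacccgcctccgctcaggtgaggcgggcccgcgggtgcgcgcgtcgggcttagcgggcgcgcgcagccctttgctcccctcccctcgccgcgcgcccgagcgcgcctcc
Egln3: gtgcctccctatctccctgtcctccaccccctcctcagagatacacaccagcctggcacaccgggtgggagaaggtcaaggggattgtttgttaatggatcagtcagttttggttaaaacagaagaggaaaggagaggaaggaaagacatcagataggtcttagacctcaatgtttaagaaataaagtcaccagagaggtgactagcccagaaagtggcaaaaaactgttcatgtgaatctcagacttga

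Positions are those of a match's first base relative to the annotated start, negative upstream. Ankrd37 held 5 matches, at -236, -147, -23, -22 and -4, the last of them running across the start. Bnip3 held 4, between -108 and -90, all within 1 short GC-rich stretch. P4ha1 held GCGTG at -136 and -99 and ACGTG at 12, and Hif1a held ACGTG at -229, -228 and -164. Egln1 held GCGTG at -56 and ACGTG at 3, and Epo held GCGTG at -35. Epas1, Egln3 and Adm held neither core in the window. Their windows held 36, 1 and 8 CG dinucleotides, against 21 in that of Ankrd37. With so few, the Egln3 window left little room for a match. Of 29 windows found for 35 further known HIF targets, 22 held at least 1 match (75.9%).

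**Figure D1:**
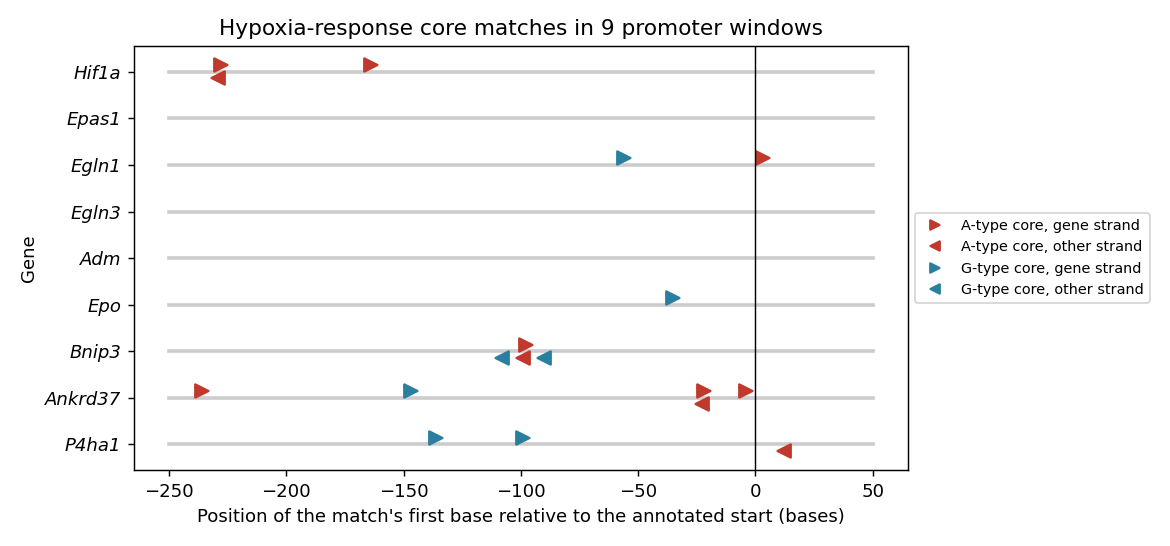
Matches to the hypoxia-response core in 9 promoter windows; the x axis is the distance in bases of the match's first base from the annotated start (vertical line) and each row is a gene. Red marks the core beginning with A, blue the core beginning with G, and arrows give the strand; Ankrd37 holds 5 matches, Bnip3 4, and Epas1, Egln3 and Adm none.

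Library totals lay between 16.8 and 25.8 M reads (M, mega). Levels are CPM (reads scaled to a library of a fixed size) after TMM scaling. This normalisation gives each library a factor on the assumption that most genes do not differ between libraries. Levels are not divided by transcript length, so those of different genes are not compared. The tissue label was checked against proximal tubule transcripts, whose summed level was 6300 to 9400 CPM in CPB+Nitrite, 6920 to 8110 CPM in CPB and 9960 to 11100 CPM in sham. CPB+Nitrite replicate 2 stood apart, with a median correlation of 0.918 with its own group, 954 CPM of thick ascending limb and distal tubule markers against 6420 to 12000 CPM in the CPB and sham libraries, 1320 CPM of endothelial markers and 7750 CPM of erythrocyte transcripts. Sham replicate 1 held 166 CPM of urothelial and 468 CPM of adipocyte markers, the highest of all libraries. CPB+Nitrite replicate 1 came next for urothelial markers, with 113 CPM against 2.53 to 14.5 CPM in the rest of its group. In tissue RNA, fewer cells of a type and less RNA per cell cannot be told apart. A gene was called changed when the adjusted p of edgeR's quasi-likelihood test (Benjamini-Hochberg adjustment over all tested genes, two-sided) was under 0.05.

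After bypass 4 of the 9 tested genes were higher than in sham kidneys and none was lower: P4ha1 by 3.51-fold, Hif1a by 1.92-fold, Ndrg1 by 1.88-fold and Egln1 by 1.32-fold. Much of the transcriptome differed between the CPB and sham libraries. Of all tested genes 43.2% were called in this comparison, 21.7% higher and 21.5% lower, so the share of HIF genes called was close to that of all genes. Their median log2 change was 0.54, against -0.05 over all tested genes. The CPB and sham groups did not overlap for 6 of the 9 genes, beside 48.2% of all genes. Between CPB+Nitrite and CPB none of the 9 was called, beside 0% of all tested genes. Between CPB+Nitrite and sham none was called either, beside 4.81% of all tested genes.

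**Figure D2:**
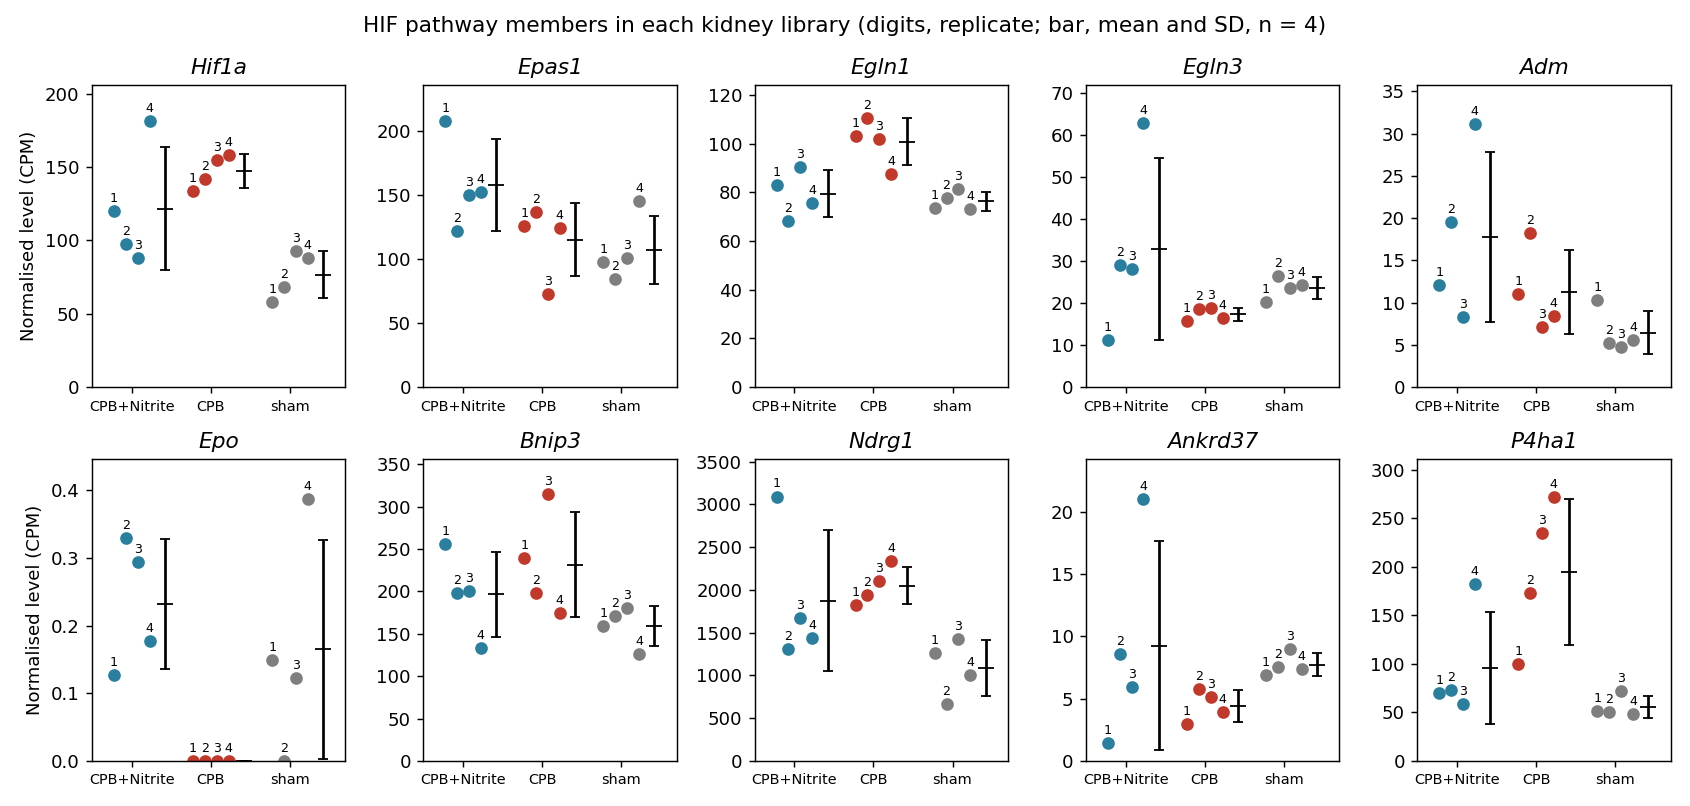
Normalised level (CPM, linear axis from 0) of the 10 genes in each library, with digits giving the replicate and bars the mean and SD of 4 libraries. CPB lies above sham without overlap for Hif1a, Egln1, Ndrg1 and P4ha1, CPB+Nitrite replicate 4 stands high for Egln3, Adm and Ankrd37, and Epo is at 0 in all 4 CPB libraries.

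Hif1a (ENSRNOG00000008292; assembly mRatBN7.2, as for all gene positions from here on, chr6:92624390-92669261, plus strand) encodes the broadly expressed alpha subunit. Its level was 119.9, 97.6, 87.7 and 181 CPM in CPB+Nitrite replicates 1 to 4, 133, 142, 155 and 158 CPM in CPB, and 58.0, 68.4, 92.5 and 87.9 CPM in sham. All CPB libraries lay above all sham libraries, while the CPB+Nitrite libraries ran from within the sham range to above the CPB range. The log2 change of CPB over sham was 0.94 ± 0.22 (SE; n = 4 each; edgeR adjusted p = 0.00632). It was called in each of the 22 alternatives run, with log2 changes between 0.75 and 1.05. For CPB+Nitrite over CPB the change was -0.28 ± 0.22 (edgeR adjusted p = 0.405), and for CPB+Nitrite over sham 0.66 ± 0.22 (edgeR adjusted p = 0.0865). The last of these was past the threshold in 4 of 22 alternatives, with adjusted p between 0.0232 and 0.237.

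Epas1 (ENSRNOG00000021318; chr6:7790647-7871228, minus strand) encodes the alpha subunit prominent in endothelium. CPB+Nitrite replicates 1 to 4 had 208, 122, 149.9 and 153 CPM, CPB replicates 126, 137, 73.1 and 125 CPM, and sham replicates 97.8, 84.4, 101 and 146 CPM. The highest library was CPB+Nitrite replicate 1 and the lowest CPB replicate 3, and the groups overlapped in every comparison. CPB differed from sham by a log2 change of 0.10 ± 0.23 (edgeR adjusted p = 0.732), CPB+Nitrite from CPB by 0.46 ± 0.23 (edgeR adjusted p = 0.203) and CPB+Nitrite from sham by 0.56 ± 0.23 (edgeR adjusted p = 0.145). None of the 22 alternatives called Epas1 in any comparison, and with total counts in place of TMM the sign for CPB over sham turned, to -0.08. The 10 endothelial markers together measured 300 to 1320 CPM in CPB+Nitrite, 190 to 328 CPM in CPB and 207 to 417 CPM in sham. Their part in the Epas1 values was not tested; the library highest for them, CPB+Nitrite replicate 2, had the lowest Epas1 of its group.

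Egln1 (ENSRNOG00000063609; chr19:52869486-52907777, minus strand) encodes the main prolyl hydroxylase of the HIF alpha subunits and is itself a HIF target. Its level was 83.1, 68.0, 90.6 and 75.8 CPM in CPB+Nitrite replicates 1 to 4, 103, 111, 102 and 87.5 CPM in CPB, and 73.4, 77.5, 81.3 and 73.1 CPM in sham. Every CPB library lay above every sham library, and the CPB+Nitrite libraries straddled the sham range. CPB exceeded sham by a log2 change of 0.40 ± 0.12 (edgeR adjusted p = 0.0211). This call held in 18 of 22 alternatives, with adjusted p between 0.00172 and 0.194. It was lost with total counts (log2 change 0.21) and without sham replicate 1 (adjusted p = 0.0542), sham replicate 4 (0.0542) or CPB replicate 2 (0.0621). CPB+Nitrite stood at -0.34 ± 0.12 against CPB (edgeR adjusted p = 0.0991) and at 0.06 ± 0.12 against sham (edgeR adjusted p = 0.793). DESeq2 called the difference between CPB+Nitrite and CPB (adjusted p = 0.0344, against 0.0344 to 0.241 over the alternatives).

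Egln3 (ENSRNOG00000005053; chr6:71650297-71675766, minus strand) encodes a related hydroxylase whose transcript is strongly induced by hypoxia in many cells. It measured 11.3, 29.1, 28.2 and 62.8 CPM in CPB+Nitrite replicates 1 to 4, 15.7, 18.5, 18.9 and 16.5 CPM in CPB, and 20.2, 26.4, 23.5 and 24.3 CPM in sham. All 4 CPB libraries lay below all sham libraries. The lowest and the highest of the 12 were both CPB+Nitrite libraries, replicates 1 and 4. The log2 change of CPB over sham was -0.44 ± 0.36 and was not past the threshold (edgeR adjusted p = 0.334). A fit of only the CPB and sham libraries, whose spread is not shared with CPB+Nitrite, called it lower (-0.41, adjusted p = 0.0218, against 0.0218 to 0.475 over the alternatives). CPB+Nitrite over CPB was 0.92 ± 0.36 (edgeR adjusted p = 0.121) and CPB+Nitrite over sham 0.48 ± 0.36 (edgeR adjusted p = 0.404). Without CPB+Nitrite replicate 1 the first of these reached 1.17 (adjusted p = 0.0149, against 0.0149 to 0.311 over the alternatives), and without replicate 4 the second became -0.05.

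Adm (ENSRNOG00000027030; chr1:164745466-164747654, plus strand) encodes adrenomedullin, a vasodilator peptide. Its level was 12.04, 19.5, 8.28 and 31.2 CPM in CPB+Nitrite replicates 1 to 4, 11.1, 18.2, 7.08 and 8.44 CPM in CPB, and 10.3, 5.19, 4.74 and 5.56 CPM in sham. Replicate 1 of sham lay well above the other sham libraries and overlapped both bypass groups. Adm had the largest difference of the 9 genes between CPB+Nitrite and sham, a log2 change of 1.46 ± 0.42, which was not past the threshold (edgeR adjusted p = 0.0603). It was past it with DESeq2, with voom sample weights and without CPB+Nitrite replicate 3, and adjusted p ran between 0.00845 and 0.199 over the 22 alternatives. CPB over sham was 0.80 ± 0.42 (edgeR adjusted p = 0.137) and CPB+Nitrite over CPB 0.66 ± 0.42 (edgeR adjusted p = 0.292). With voom sample weights CPB over sham passed, at 1.01 (adjusted p = 0.0306, against 0.0306 to 0.4 over the alternatives).

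Epo (ENSRNOG00000001412; chr12:19204508-19207946, plus strand) encodes erythropoietin, the hormone that drives red cell production, and was near the limit of detection. It had 3, 9, 6 and 4 counts in CPB+Nitrite replicates 1 to 4, 0 in each CPB library, and 4, 0, 3 and 8 counts in sham. Reads were thus found in every CPB+Nitrite library, in no CPB library and in 3 of 4 sham libraries. Summed over a group this was 22 counts (0.234 CPM) in CPB+Nitrite, 0 in CPB and 15 counts (0.155 CPM) in sham. A count of 0 over the CPB group allows up to 3 counts, or 0.0393 CPM, for counting error only. Against that limit the pooled Epo level was 5.96-fold in CPB+Nitrite and 3.95-fold in sham. These ratios are not lower bounds, since they allow neither for counting error in those groups nor for the spread between libraries.

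Exact permutation tests of mean Epo CPM, two-sided and adjusted over 3 comparisons, gave a difference of -0.165 CPM for CPB minus sham (p = 0.143, adjusted 0.214). CPB+Nitrite minus CPB was 0.232 CPM, with an exact permutation p = 0.0286, the smallest that 4 against 4 can give, and 0.0857 after adjustment. CPB+Nitrite minus sham was 0.0675 CPM (exact permutation p = 0.543). Without sham replicate 2, the sham library at 0, CPB minus sham was -0.219 CPM (exact permutation p = 0.0286), and without any other single library it kept p = 0.143. For CPB+Nitrite minus CPB, leaving out any 1 of the 4 CPB libraries gave an exact permutation p = 0.0571. The difference itself stayed at 0.232 CPM, since all CPB libraries were at 0, and p rose only through the change in the set of arrangements. That rise of p therefore does not show how secure the difference of CPB+Nitrite minus CPB is. For CPB minus sham the difference itself moved, between -0.219 and -0.0905 CPM with a library left out. Fitted without a filter on low counts, edgeR called Epo for CPB against sham (adjusted p = 0.0274) and not for CPB+Nitrite against CPB (adjusted p = 0.0719). DESeq2 also called Epo lower in CPB than in sham (adjusted p = 0.0202) and gave no adjusted p for CPB+Nitrite against CPB. Transcripts of interstitial fibroblasts and pericytes, the cells that make erythropoietin, summed to 166 to 438 CPM in CPB+Nitrite, 127 to 180 CPM in CPB and 150 to 320 CPM in sham, and no marker was at 0 in any group. Of 9 such markers tested, 2 were called lower in CPB than in sham, Lum and Cspg4, and 0 higher, with a median log2 change of -0.76; 21.5% of all tested genes were lower, a share close to theirs. All 9 changes were negative. For CPB+Nitrite over CPB 0 of the 9 were called, 8 changes were positive and 1 negative, and the median was 0.84, against 0.05 over all tested genes. CPB+Nitrite replicate 2 had both the highest sum, 438 CPM, and the most Epo counts of its group. Sham replicate 2, the sham library at 0 for Epo, summed to 285 CPM. The part of these cells in the Epo values was not tested.

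Bnip3 (ENSRNOG00000017243; chr1:193708167-193725359, minus strand) encodes a mitochondrial outer-membrane protein that recruits the autophagy machinery. Its level was 256, 198, 201 and 133 CPM in CPB+Nitrite replicates 1 to 4, 239.7, 198, 315 and 175 CPM in CPB, and 159, 171, 181 and 126 CPM in sham. The groups overlapped in every comparison, CPB and sham through CPB replicate 4 alone. CPB over sham was 0.54 ± 0.22 on the log2 scale and missed the threshold (edgeR adjusted p = 0.0659). It passed in 8 of 22 alternatives, adjusted p ranging between 0.0232 and 0.212. CPB+Nitrite over CPB was -0.24 ± 0.22 (edgeR adjusted p = 0.483) and CPB+Nitrite over sham 0.31 ± 0.22 (edgeR adjusted p = 0.389).

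Ndrg1 (ENSRNOG00000007393; chr7:98684487-98725880, minus strand) encodes a stress-responsive cytoplasmic protein induced by hypoxia. CPB+Nitrite replicates 1 to 4 had 3093, 1303, 1671 and 1435 CPM, CPB replicates 1827, 1940, 2100 and 2334 CPM, and sham replicates 1263, 668, 1425 and 999 CPM. The CPB libraries lay close together and above all sham libraries, and 3 of 4 CPB+Nitrite libraries lay below all CPB libraries while replicate 1 lay above them. CPB exceeded sham by a log2 change of 0.91 ± 0.29 (edgeR adjusted p = 0.024). The call held in 18 of 22 alternatives and was lost without sham replicate 2 (adjusted p = 0.0692), sham replicate 4 (0.0586), CPB replicate 3 (0.0511) or CPB replicate 4 (0.0594), against 0.00098 to 0.0692 over the alternatives. CPB+Nitrite over CPB was -0.13 ± 0.29 (edgeR adjusted p = 0.782), and CPB+Nitrite over sham was 0.78 ± 0.29 (edgeR adjusted p = 0.111).

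Ankrd37 (ENSRNOG00000031335; chr16:46268443-46271963, plus strand) encodes an ankyrin-repeat protein known as a direct HIF target in human cells. It had 1.44, 8.57, 5.93 and 21.0 CPM in CPB+Nitrite replicates 1 to 4, 2.92, 5.78, 5.10 and 3.89 CPM in CPB, and 6.85, 7.56, 8.996 and 7.40 CPM in sham. As for Egln3, every CPB library lay below every sham library, and CPB+Nitrite replicates 1 and 4 were the lowest and the highest of all 12. The log2 change of CPB over sham was -0.80 ± 0.55 (edgeR adjusted p = 0.249), and the fit of only these groups called it lower (-0.77, adjusted p = 0.016, against 0.016 to 0.41 over the alternatives). CPB+Nitrite over CPB was 1.07 ± 0.55 (edgeR adjusted p = 0.211) and 1.39 without CPB+Nitrite replicate 1 (adjusted p = 0.0289, against 0.0289 to 0.696 over the alternatives). CPB+Nitrite over sham was 0.26 ± 0.54 (edgeR adjusted p = 0.779), and became -0.54 without CPB+Nitrite replicate 4.

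P4ha1 (ENSRNOG00000050655; chr20:27302141-27352786, plus strand) encodes a catalytic subunit of collagen prolyl hydroxylase, which collagen needs to fold. Its level was 69.7, 73.4, 58.8 and 182 CPM in CPB+Nitrite replicates 1 to 4, 99.95, 173, 234 and 271 CPM in CPB, and 51.5, 49.9, 72.0 and 48.2 CPM in sham. All CPB libraries exceeded all sham libraries, and 3 of 4 CPB+Nitrite libraries lay below the lowest CPB library and near the sham range. This was the largest difference of the 9 genes between CPB and sham, 1.81 ± 0.38 on the log2 scale (edgeR adjusted p = 0.00346), and it was called in each of the 22 alternatives. CPB+Nitrite over CPB was -1.02 ± 0.37 (edgeR adjusted p = 0.0997). DESeq2 called that difference lower (adjusted p = 0.0398, against 0.0398 to 0.253 over the alternatives). CPB+Nitrite over sham was 0.79 ± 0.37 (edgeR adjusted p = 0.184).

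**Figure D3:**
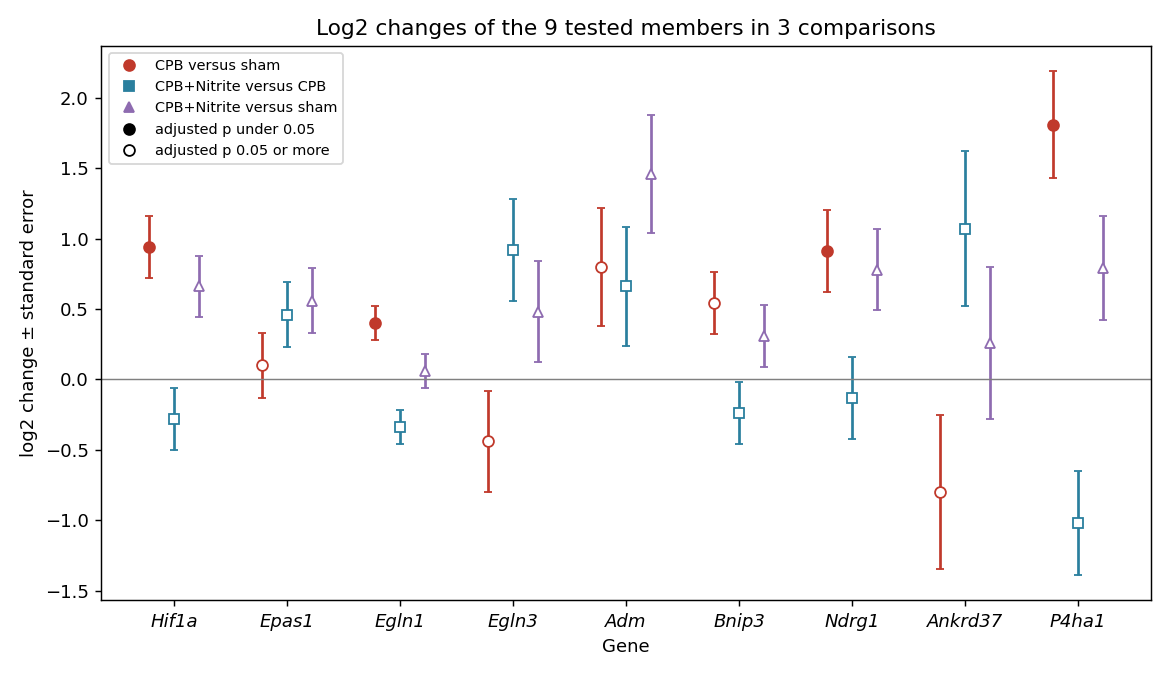
Log2 change with its standard error for the 9 tested genes in 3 comparisons; filled symbols have an adjusted p under 0.05. Filled symbols appear only for CPB versus sham, at Hif1a (0.94), Egln1 (0.40), Ndrg1 (0.91) and P4ha1 (1.81).

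How many of the 9 were called depended on the fit, as did the count over all genes. For CPB against sham, a fit of only those groups called 7 of 9, adding Bnip3 as higher and Egln3 and Ankrd37 as lower, when 55.6% of all genes were called. Without sham replicate 4 it called 2, Hif1a and P4ha1, when 35.5% of all genes were called. With total counts in place of TMM the median log2 change of all genes was -0.24 in place of -0.05, 34.8% of the calls were higher in place of 50.3%, and Egln1 was no longer called. For CPB+Nitrite against CPB that median was 0.17 with total counts and 0.05 with TMM.

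For CPB+Nitrite against CPB, edgeR called 0% of all genes. At an unadjusted p under 0.05 it listed 3 of the 9, Egln1 and P4ha1 lower and Egln3 higher, beside 29.4% of all genes, a share close to theirs. None of the 9 had groups without overlap, beside 12.7% of all genes. DESeq2 called Egln1 and P4ha1 when 14.7% of all genes were called, and without CPB+Nitrite replicate 1 edgeR called Egln3 and Ankrd37 when 19.3% were. The median log2 change of the 9 genes was -0.13, against 0.05 over all genes.

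For CPB+Nitrite against sham all 9 log2 changes were positive, with a median of 0.56, against 0.04 over all genes. None was called, beside 4.81% of all genes, and none had groups without overlap, beside 11.5% of all genes. An unadjusted p under 0.05 was found for 4 of 9, Hif1a, Epas1, Adm and Ndrg1, beside 27.4% of all genes. DESeq2 called Hif1a and Adm (14.5% of all genes called), and voom with sample weights called Hif1a, Adm and Ndrg1 (19.6%). Without CPB+Nitrite replicate 2 Hif1a was called (12.2%), and without replicate 3 Hif1a and Adm were (20%). The comparisons share libraries, so their values are given side by side and not as separate evidence.

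The CPB+Nitrite libraries differed among themselves more than those of the other groups. The median coefficient of variation of the 9 genes was 44% in CPB+Nitrite, 24.8% in CPB and 20.1% in sham, beside 29.5%, 18.2% and 15.7% over all tested genes. Within CPB+Nitrite the highest library exceeded the lowest by 14.6-fold for Ankrd37, 5.57-fold for Egln3, 3.76-fold for Adm and 3.09-fold for P4ha1, and by 1.33-fold for Egln1. Within CPB the same ratios were 1.98 for Ankrd37, 1.2 for Egln3, 2.58 for Adm, 2.72 for P4ha1 and 1.27 for Egln1. CPB+Nitrite replicate 4 was the highest of the 12 libraries for 4 of the 9 genes, Hif1a, Egln3, Adm and Ankrd37. It was also the highest for 11 of 34 further HIF targets, among them Vegfa, Slc2a1, Pfkfb3, Hk2, Ero1a and Edn1, and for 7.28% of all tested genes. CPB+Nitrite replicate 1 was the highest for Epas1 and Ndrg1 and the lowest for Egln3 and Ankrd37.

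**Figure D4:**
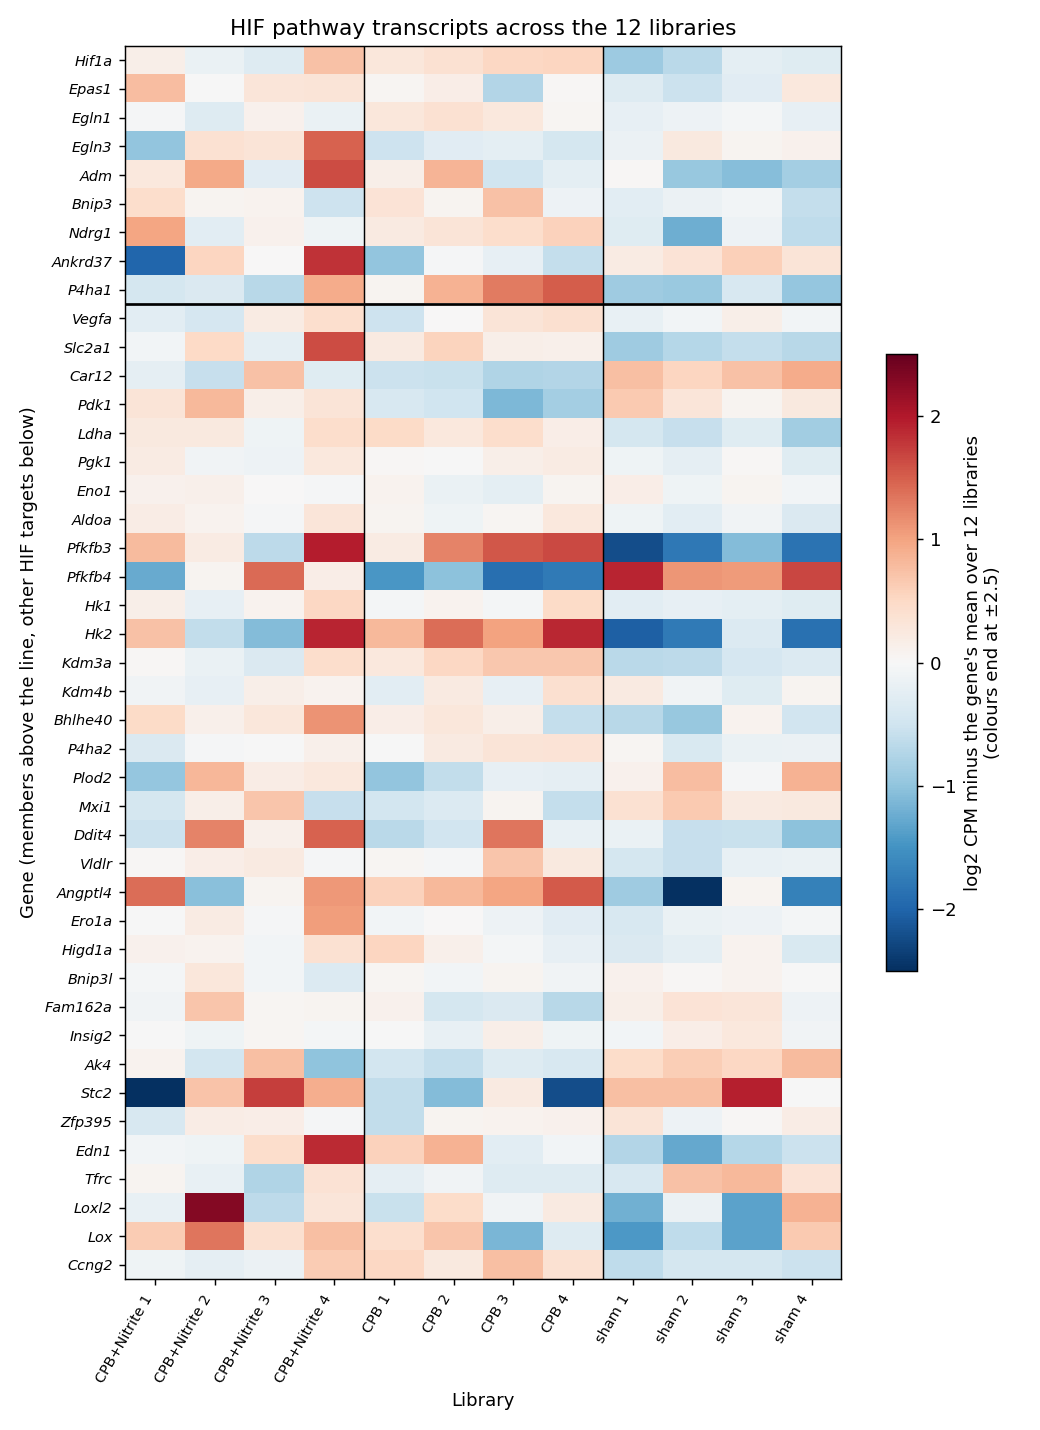
Log2 CPM of each gene minus its own mean over 12 libraries, in colour, for the 9 tested genes (above the line) and 34 further HIF targets (below it); colours end at ±2.5. The column of CPB+Nitrite replicate 4 is red for Egln3, Adm, Ankrd37, Slc2a1, Pfkfb3 and Edn1, while CPB+Nitrite replicate 1 is blue for Egln3 and Ankrd37.

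Genes with the most similar pattern were found by the root mean square difference of centred log2 CPM over the 12 libraries, among 12160 genes. For Ankrd37 these were Rasgef1b (0.37), Egln3 (0.41) and Arrdc2 (0.49), and for Egln3 Arrdc2 (0.26), Mapk13 (0.29) and Polg2 (0.35). Hif1a was nearest to Ddx3x, Fermt2 and Etv3 (0.13 each), Ndrg1 to Gabarapl1 (0.25), Tgfb3 (0.26) and Flot2 (0.26), and P4ha1 to Dedd2 (0.28), Cnksr1 (0.28) and Hsp90ab1 (0.29). Among these neighbours only Egln3, beside Ankrd37, is itself one of the 10 genes.

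The machinery around the alpha subunits was measured through 13 partners and regulators, all tested. In CPB against sham 4 were higher and 1 lower, 8 did not pass, and the median log2 change was 0.34; of all tested genes 43.2% were called, so the share of regulators called did not exceed that of all genes. Vhl, the substrate receptor that leads the alpha subunits to degradation, averaged 77.0 ± 22.3 CPM in CPB+Nitrite, 122 ± 18.9 CPM in CPB and 54.6 ± 7.37 CPM in sham (SD, n = 4 each). Its CPB libraries, at 109.7 to 149.8 CPM, all exceeded the sham libraries, at 48.1 to 65.0 CPM, a log2 change of 1.15 ± 0.21 (edgeR adjusted p = 0.00199). Cul2, the cullin scaffold of the same ligase, was higher by 0.63 ± 0.17 (edgeR adjusted p = 0.0102). The coactivator genes Crebbp and Ep300 were higher by 1.07 ± 0.21 (edgeR adjusted p = 0.00274) and 0.53 ± 0.18 (edgeR adjusted p = 0.0338); Ep300 passed in 14 of 22 alternatives, the others in all that gave a value.

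Hif3a, whose protein includes forms that restrain HIF, was the 1 regulator that was lower with bypass. It had 0.887, 1.32, 11.8 and 0.978 CPM in CPB+Nitrite replicates 1 to 4, 0.632, 0.27, 0.623 and 0.737 CPM in CPB, and 6.78, 6.32, 7.44 and 8.97 CPM in sham. All CPB+Nitrite libraries lay above all CPB libraries, a lack of overlap found, in either direction, for 12.7% of all tested genes. Replicates 1, 2 and 4 of CPB+Nitrite lay near the CPB level and replicate 3 above the sham range. CPB differed from sham by -3.70 ± 0.81 on the log2 scale (edgeR adjusted p = 0.00445). For CPB+Nitrite against CPB none of the 13 passed; Hif3a had 2.71 ± 0.79 (edgeR adjusted p = 0.0674), which was 0.91 without CPB+Nitrite replicate 3 and 3.01 with an adjusted p = 0.0216 without replicate 1 (against 0.0216 to 0.19 over the alternatives), and Cul2 -0.54 ± 0.17 (edgeR adjusted p = 0.0733). None of the 13 passed between CPB+Nitrite and sham. Of all tested genes 4.81% were called in that comparison, and 0% for CPB+Nitrite against CPB.

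Of 35 further HIF targets 34 were tested. Between CPB and sham 10 were higher, 6 lower and 18 did not pass, with a median log2 change of 0.24. This stands beside 21.7% higher and 21.5% lower among all tested genes, so the share of these targets called was close to that of all genes. The balance depended on the scaling, with 6 higher and 8 lower under total counts, and without sham replicate 2 the calls were 6 higher and 4 lower. The members did not move as 1 block. The glycolytic regulator Pfkfb3 was higher by 2.94 ± 0.51 (edgeR adjusted p = 0.00164) and the histone demethylase gene Kdm3a by 1.06 ± 0.18 (edgeR adjusted p = 0.0015). Pfkfb4, a relative of Pfkfb3, was lower, at -3.00 ± 0.47 (edgeR adjusted p = 0.0012), and Car12, a carbonic anhydrase, was lower at -1.39 ± 0.25 (edgeR adjusted p = 0.00177). Pfkfb3 measured 66.9 to 407 CPM in CPB+Nitrite, 120 to 331 CPM in CPB and 22.6 to 49.2 CPM in sham. Pfkfb4 measured 3.42 to 22.6 CPM in CPB+Nitrite, 2.21 to 4.05 CPM in CPB and 17.7 to 31.5 CPM in sham, so that CPB and sham did not overlap for either gene. The other called targets were Hk2, Angptl4, Edn1, Ccng2, Slc2a1, Ldha, Vldlr and P4ha2 among the higher and Ak4, Pdk1, Plod2 and Mxi1 among the lower. Vegfa, the best known angiogenic target, averaged 309 ± 84.2 CPM in CPB+Nitrite, 324 ± 84.8 CPM in CPB and 296 ± 29.1 CPM in sham (SD, n = 4 each) and was not called.

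Between CPB+Nitrite and sham 3 of the 34 targets were higher and 0 lower, beside 4.81% of all tested genes called, with a median log2 change of 0.28. Slc2a1, which encodes a glucose transporter, had 77.0, 114, 68.0 and 249.7 CPM in CPB+Nitrite replicates 1 to 4, 93.3, 117, 89.3 and 87.4 CPM in CPB, and 43.2, 49.2, 53.0 and 49.7 CPM in sham. Both bypass groups lay above all sham libraries, and CPB+Nitrite exceeded sham by 1.38 ± 0.33 (edgeR adjusted p = 0.0441). Pfkfb3 stood at 2.56 ± 0.50 (edgeR adjusted p = 0.0287) and the lactate dehydrogenase gene Ldha at 0.75 ± 0.17 (edgeR adjusted p = 0.0382). All 3 calls were lost without any one of sham replicates 1, 2 and 4 or CPB+Nitrite replicates 1 and 4, among others, and they passed in 8 to 14 of 22 alternatives. Against CPB none of the 34 passed, beside 0% of all tested genes. Pdk1 encodes a kinase that restrains the oxidation of pyruvate inside mitochondria. It had 6.59, 9.31, 5.88 and 6.58 CPM in CPB+Nitrite and 3.95, 3.72, 2.38 and 2.88 CPM in CPB, groups without overlap. The log2 change was 1.13 ± 0.24 (edgeR adjusted p = 0.0556, and between 0.00106 and 0.166 over the alternatives).

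**Figure D5:**
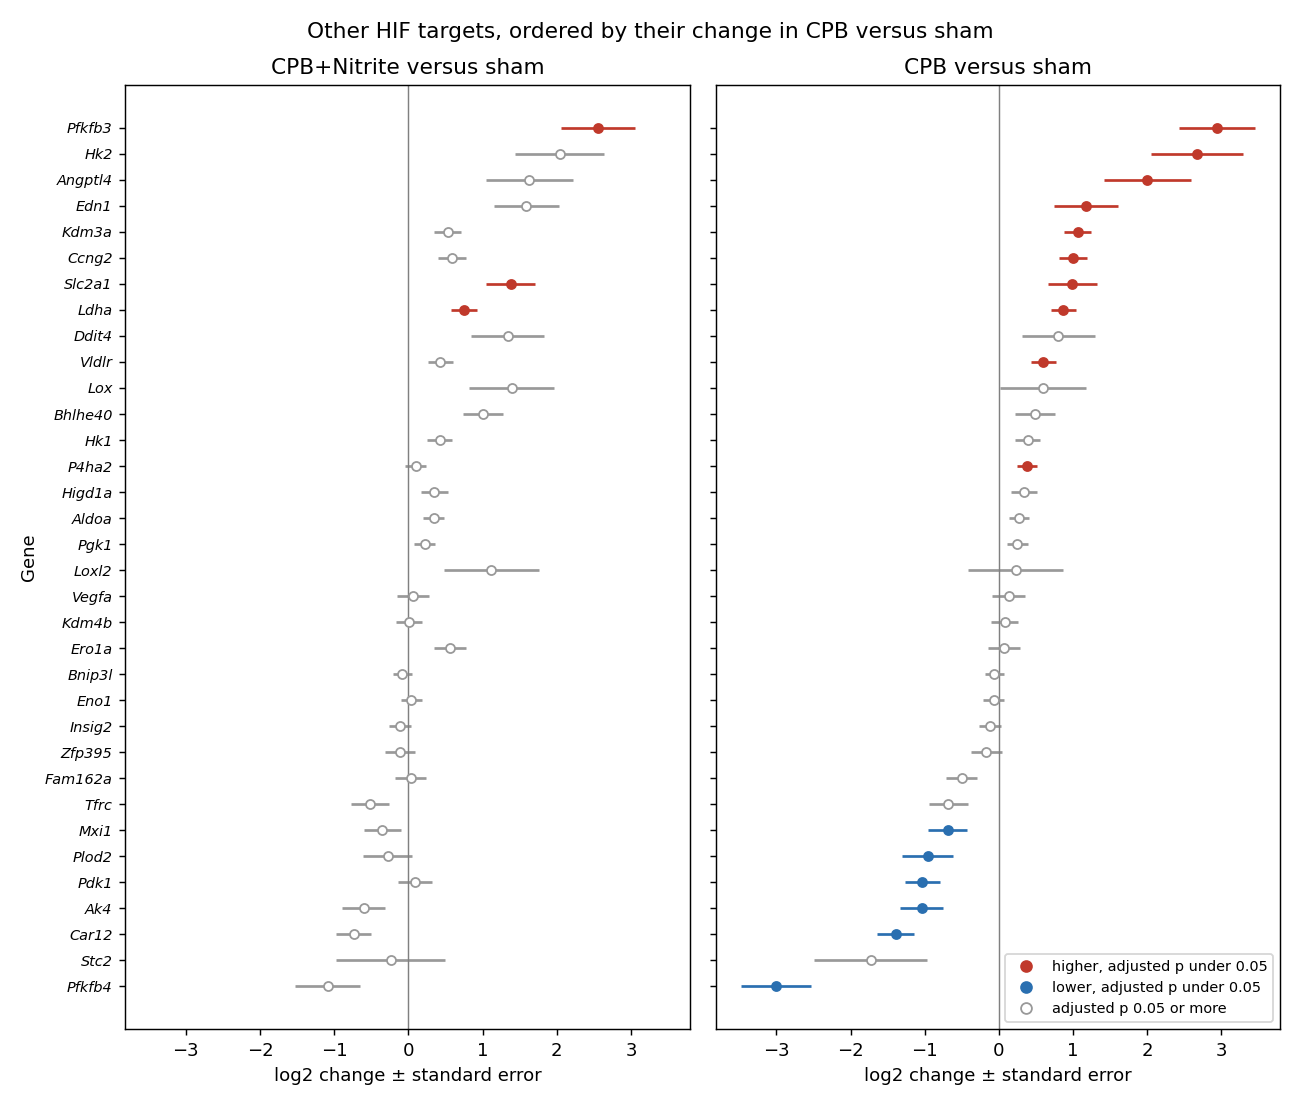
Log2 change with its standard error of 34 further HIF targets in CPB+Nitrite versus sham (left) and CPB versus sham (right), ordered by the right panel; red and blue mark genes higher or lower with an adjusted p under 0.05. On the right 10 genes are red and 6 blue, on the left 3 are red (Pfkfb3, Slc2a1 and Ldha) and none is blue.

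The proteins of the 10 genes work with partners, such as receptor subunits for adrenomedullin, the erythropoietin receptor and its signalling chain, relatives of Ndrg1 and the enzymes that modify collagen. Of 25 listed, 22 were tested. Bnip3l, P4ha2 and Plod2 are also among the further HIF targets, so the calls of P4ha2 and Plod2 are counted in both lists. In CPB against sham 3 were higher, 8 lower and 11 did not pass, with a median log2 change of -0.51, beside 43.2% of all tested genes called and 21.5% lower. With total counts 2 were higher and 10 lower. Jak2, the kinase bound to the erythropoietin receptor, was higher by 2.17 ± 0.32 (edgeR adjusted p = 0.00107), while the transcription factor gene Stat5a downstream of it was lower, at -2.25 ± 0.34 (edgeR adjusted p = 0.00107). Sqstm1, which encodes an autophagy receptor, was higher by 1.43 ± 0.26 (edgeR adjusted p = 0.00197). Ndrg2, a relative of Ndrg1, averaged 37.0 ± 18.0 CPM in CPB+Nitrite, 10.2 ± 2.45 CPM in CPB and 65.6 ± 18.1 CPM in sham (SD, n = 4 each), and was lower in CPB than in sham (log2 change -2.68 ± 0.34, edgeR adjusted p = 0.000968), the opposite direction to Ndrg1.

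Between CPB+Nitrite and sham 1 of the 22 partners was higher and 1 lower, beside 4.81% of all tested genes called. Ramp3, which shapes a receptor for adrenomedullin, had 41.2, 88.3, 41.3 and 49.2 CPM in CPB+Nitrite replicates 1 to 4, 30.1, 30.1, 17.7 and 16.0 CPM in CPB, and 26.4, 21.8, 20.3 and 26.0 CPM in sham. All CPB+Nitrite libraries lay above all others, by 1.22 ± 0.28 over sham (edgeR adjusted p = 0.0402) and 1.23 ± 0.28 over CPB, which missed the threshold (edgeR adjusted p = 0.0556). Stat5a was lower in CPB+Nitrite than in sham (log2 change -1.75 ± 0.33, edgeR adjusted p = 0.0287). The Ramp3 call over sham held in 9 of 22 alternatives and that of Stat5a in 15. The library highest for Ramp3, CPB+Nitrite replicate 2, was the one with the most endothelial marker RNA, and its part in the Ramp3 difference was not tested. Ndrg2 in CPB+Nitrite stood 1.85 ± 0.34 above CPB (edgeR adjusted p = 0.0556).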

How the data were processed

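Rat kidney RNA was sequenced in 12 libraries, 4 each of CPB+Nitrite, CPB and sham, grouped by the sample labels. Per the labels' protocols, QIAzol RNA was DNase-treated and made into strand-specific NEBNext libraries; per the submitters' processing notes the tools included cutadapt 1.18 and Salmon 1.2.1 with the build mRatBN7.2. The authors deposited estimated counts per Ensembl gene, of which 33.1% of non-zero values were not whole (tolerance 1e-06). The other deposited table holds a scaled signal, the authors' counts multiplied by 1 factor per library, and supplied symbols and coordinates. Counts were rounded, filtered with filterByExpr (minimum count 10, which kept 99.95% of reads) and fitted over all 12 libraries with edgeR 4.0.16 in R 4.3.3 (TMM factors 0.887 to 1.11, glmQLFit and glmQLFTest, no covariates), with limma 3.58.1 and DESeq2 1.42.0 as alternatives. Precision was set by 4 replicates and a biological coefficient of variation of 0.317 more than by depth. Standard errors come from the F statistic. Epo was compared by exact permutation of mean CPM. The genes, lists and tests were chosen with earlier results of these data known. All 10 genes are named in every comparison, and from each further list up to 4 genes with the smallest p past the threshold, or 2 where none passed; the remaining called regulators and further targets, Vegfa and some others are named outside that rule, after their values were seen. In all, 1 further target is not reported here. Alternatives were other scalings, filters and models, the replicate number as a block, each library left out and, chosen after seeing the data, sham replicate 1 and CPB+Nitrite replicate 2 left out together; their use on the further lists was also added after seeing the data.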

Additional observations from a re-analysis of the deposited data

Results flagged for a closer look

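In 29 groups of 4 libraries, 1 for each gene and group with a spread, 3 values lay far from the rest of their group, where chance gives about 1 in 20. Adm was 10.3 CPM in sham replicate 1 and P4ha1 was 72 CPM in sham replicate 3, each above the other sham libraries. P4ha1 was 182 CPM in CPB+Nitrite replicate 4, against 58.8 to 73.4 CPM in the other CPB+Nitrite libraries.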

How the results depend on the processing

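Log2 changes of the 9 tested genes kept their direction and their side of the threshold in 223 results of alternatives that left out no library and in 331 of those that left out 1 or more; 15 and 8 gained a call, 1 and 7 lost one, and 4 and 5 changed sign. The sign changes were: for CPB against sham, Epas1 with total counts (-0.08); for CPB+Nitrite against CPB, Ndrg1 without CPB+Nitrite replicate 2, alone or with sham replicate 1 (0.01 each); for CPB+Nitrite against sham, Egln1 with total counts (-0.02) and without CPB+Nitrite replicate 3 (-0.01), Egln3 without CPB+Nitrite replicate 4 (-0.05), and Ankrd37 with voom (-0.25), with a replicate block (-0.11) and without CPB+Nitrite replicate 4 (-0.54). For CPB against sham the 4 calls became 7 in the fit of those groups alone and 2 to 5 with a library left out, over 4692 to 7574 genes called; further HIF targets gave 10 to 19, regulators 4 to 6 and partners 8 to 14. For CPB+Nitrite against CPB the 0 genes called became 2235 with DESeq2, 1 with voom and 0 to 2865 with a library left out (2865 without CPB+Nitrite replicate 1); the 9 genes gave 2 with DESeq2 and 0 to 2, regulators 3 and 0 to 5, further targets 3 and 0 to 4, partners 5 and 0 to 6. For CPB+Nitrite against sham the 705 genes became 2144 with DESeq2, 2870 with voom, 0 with only those groups, 28 with a replicate block, 414 without sham replicate 1 and CPB+Nitrite replicate 2, and 0 to 2976 with a library left out (2976 without CPB+Nitrite replicate 3). There the 9 genes gave 2 with DESeq2, 3 with voom and 0 to 2; the 0 regulators 2 with voom and 0 to 1; the 3 further targets 5 with the factors of the authors' scaled table, 12 with DESeq2, 12 with voom, 0 with only those groups, 0 with the block, 1 without both of those libraries and 0 to 12; and the 2 partners 6 with DESeq2, 6 with voom, 0 with only those groups, 0 with the block, 1 without both libraries and 0 to 7. The cause was not tested. The share of higher calls there was 80.1%, against 66.9% with DESeq2, 55.7% with voom and 54.4% without CPB+Nitrite replicate 3. Same-numbered libraries were not treated as paired in the main fit. Of such pairs 3 of 12 correlated above 0.1, the highest at 0.38, and 5 of 12 libraries correlated best with their own number. These values cannot settle whether the libraries were paired. Leaving out a library gave -0.52 to 0.01 for Ndrg1 in CPB+Nitrite against CPB and, against sham, -0.01 to 0.12 for Egln1, -0.05 to 0.75 for Egln3 and -0.54 to 0.61 for Ankrd37. With a replicate block CPB against sham gave 6229 genes and 5 of the 9. Epo differences kept their sign in each alternative; leaving out a library gave -0.219 to -0.0905 CPM for CPB minus sham, 0.199 to 0.267 for CPB+Nitrite minus CPB and 0.0126 to 0.142 for CPB+Nitrite minus sham. At 0 to 9 counts a library, depth limits every statement on Epo.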
